A study of Mus musculus with 4 samples.

Results

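The regions described are RNA polymerase II (Pol II) peaks that lay 1 to 5 kb outside protein-coding genes of mouse osteoblasts treated with OSS_128167. A peak was taken when its length was below 1000 bp, it lay on chromosomes 1 to 19, its centre was more than 1000 and at most 5000 bp beyond the boundary of the nearest protein-coding gene, and the centre fell inside no annotated gene of any kind. There were 2824 such peaks among the 40748 of the OSS_128167 list, which is 7.04% of the 40093 on chromosomes 1 to 19 (exact 95% interval 6.80 to 7.30). Where RefSeq gave the strand of the gene they were split by side, with 1708 peaks downstream of the gene, 508 upstream and 608 at genes without a strand in the tables used, of which 92 were on chromosome 18. The regions were chosen by the position and the length of peaks in the OSS_128167 list, so neither is a result.

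The measurement was ChIP-seq, in which chromatin bound by a protein is recovered with an antibody, here against Pol II, and sequenced. The OSS_128167 library came from primary osteoblasts treated with OSS_128167, an inhibitor of the deacylase SIRT6, and the untreated library from primary osteoblasts titled WT with no treatment in the title. Both came from cells grown out of bone pieces of young mice, passaged as bone marrow mesenchymal stem cells and kept in osteogenic medium for 3 days. There was 1 Pol II library and 1 input per condition, so no test between conditions was possible, and the grouping rests on titles, since the labels' treatment entry is OSS_128167 for every sample, the untreated ones included. The deposited peak list of the OSS_128167 library carries SIRT6 in its name, although its label gives an antibody against Pol II, and it was read by its label.

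Pol II does not stop where the messenger RNA ends. After the poly(A) site has been transcribed, the new RNA is cut by the cleavage and polyadenylation complex while the polymerase goes on along the template, slows down, and is released when the exonuclease XRN2 degrades the RNA still attached to it. The stretch beyond the 3′ end where this takes place is called the termination zone, whereas the stretch before the 5′ end holds promoter-proximal and enhancer elements and antisense transcripts. Histone genes of the S phase follow another route, in which a stem-loop takes the place of the poly(A) signal.

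A few of the regions coincided with annotated elements whose letters can be shown. The peak at chr9:120576875-120577669 (mm10), centred 2619 bp downstream of Rpl14, a gene of the large ribosomal subunit, covered all 300 bases of the promoter window of the long noncoding RNA gene 5830454E08Rik. Peaks downstream of Npnt, which encodes the bone matrix protein nephronectin, and of Adamtsl4, a matrix protein of the ADAMTS-like family, covered 115 and 255 bases of the windows of Gm29811 and Gm52627. These were the 3 overlaps with an FDR of at most 0.05 among 10 regions on chromosomes other than 18 that touched such a window. Below they are followed by the promoters of Slc38a2 and Postn. These had the most and the fewest CG pairs among the 10 of the 12 genes with the highest downstream folds whose RefSeq window starts within 1 kb of the gene's 5′ boundary, while the windows of Lmna and Slc3a2 lay farther inside the gene. That ranking is over whole windows of 300 bases. For Slc38a2 and Postn the first 250 bases are shown, with 30 and 3 CG pairs. All are from RefSeq on GRCm38.p6, on the strand of the named gene, and CG pairs are in capitals.
5830454E08Rik, chr9:120577081-120577380, plus strand: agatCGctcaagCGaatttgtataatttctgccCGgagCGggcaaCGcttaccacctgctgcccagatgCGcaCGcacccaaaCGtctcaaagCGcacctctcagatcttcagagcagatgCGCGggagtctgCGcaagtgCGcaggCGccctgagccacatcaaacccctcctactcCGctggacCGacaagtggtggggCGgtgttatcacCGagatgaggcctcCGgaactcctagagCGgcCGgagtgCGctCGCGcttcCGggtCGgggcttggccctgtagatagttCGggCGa
Gm29811, chr3:132878732-132878846, minus strand: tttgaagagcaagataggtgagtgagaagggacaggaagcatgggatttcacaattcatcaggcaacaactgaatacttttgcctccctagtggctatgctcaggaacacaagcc
Gm52627, chr3:95671922-95672176, plus strand: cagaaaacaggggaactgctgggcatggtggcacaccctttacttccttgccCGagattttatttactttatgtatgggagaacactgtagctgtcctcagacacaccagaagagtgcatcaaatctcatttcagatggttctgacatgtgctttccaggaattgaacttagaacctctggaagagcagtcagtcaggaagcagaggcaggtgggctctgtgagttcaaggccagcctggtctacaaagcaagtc
Slc38a2, chr15:96699729-96699978, minus strand: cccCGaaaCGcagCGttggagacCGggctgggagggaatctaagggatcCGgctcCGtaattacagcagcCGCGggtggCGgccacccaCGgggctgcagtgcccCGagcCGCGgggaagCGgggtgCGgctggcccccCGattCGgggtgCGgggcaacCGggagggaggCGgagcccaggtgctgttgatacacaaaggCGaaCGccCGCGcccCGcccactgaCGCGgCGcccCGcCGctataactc
Postn, chr3:54359017-54359266, plus strand: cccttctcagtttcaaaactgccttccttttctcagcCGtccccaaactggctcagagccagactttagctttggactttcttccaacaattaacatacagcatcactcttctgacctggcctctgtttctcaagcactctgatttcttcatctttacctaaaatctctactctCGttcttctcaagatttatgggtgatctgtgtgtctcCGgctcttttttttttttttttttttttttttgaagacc

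The window of 5830454E08Rik held 28 CG pairs, where the median over 32851 RefSeq windows of the same length was 7. The stretch of Gm29811 held 0 and that of Gm52627 held 1. The letters AATAAA, the core of most poly(A) signals, were searched on both strands and occurred on 1 strand of the Gm52627 stretch and in neither of the other two, beside 19.6% of all windows. TATAAA, the TATA box letters, occurred in none of the 3 stretches on either strand, beside 13.6% of all windows. A match of letters is a description and not a site.

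Another pair of regions covered microRNA genes. The region at chr8:84208029-84208918, centred 2469 bp downstream of the zinc finger gene Zswim4, covered the cluster of Mir23a, Mir27a and Mir24-2, whose products are processed from a single transcript. The region at chr8:84178703-84178999, centred 2299 bp upstream of Nanos3, an RNA-binding protein of germ cells, covered Mir181c and Mir181d. The mature strands best known from each hairpin are given from RefSeq (GRCm38.p6), with the seed, bases 2 to 8, in capitals.
mmu-miR-23a-3p: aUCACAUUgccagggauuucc
mmu-miR-27a-3p: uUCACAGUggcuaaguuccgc
mmu-miR-24-3p: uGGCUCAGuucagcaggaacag
mmu-miR-181c-5p: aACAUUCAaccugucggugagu
mmu-miR-181d-5p: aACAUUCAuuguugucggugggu

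The miR-181 strands share the seed ACAUUCA, while the 3 strands of the other cluster each have their own. The region over the miR-23a cluster had a fold of 3.4 (FDR 0.0751), and a second region of Zswim4, 1219 bp downstream and 494 bp from Mir24-2, had a fold of 3.42 (FDR 0.0179). At Mir181c and Mir181d the fold was 2.26 with an FDR of 0.716. So of these regions the one beside the miR-23a cluster passed an FDR of 0.05, and the ones over microRNA genes did not. In all 111 regions (3.93%, 3.24 to 4.71) lay within 1 kb of a gene that is not protein-coding, among them 48 near a long noncoding RNA gene and 45 near a pseudogene, and 16 reached into such a gene.

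The folds are enrichments that the authors gave to peaks of a single list, as are the FDR values beside them, and neither was compared between lists. Over the 2824 regions the fold was lowest at 1.83, had a median of 2.89 (2.87 to 2.92) and was highest at 7.91, where the median of all peaks on chromosomes 1 to 19 was 2.87. The length was 226 to 994 bp with a median of 310 bp. An FDR of at most 0.05 was reached by 636 regions (22.5%, 21.0 to 24.1), beside 16.1% of all peaks on these chromosomes. Downstream of genes 426 of 1708 reached it (24.9%, 22.9 to 27.1), and upstream 77 of 508 (15.2%, 12.2 to 18.6). Other peaks under 1000 bp reached it in 15.5% of cases inside protein-coding genes and in 10.9% more than 50 kb from them. Outside genes and 1 to 1000 bp from protein-coding ones, 282 of 1011 did (27.9%, 25.1 to 30.8), a higher share than in the zone. Most regions thus missed this limit, also downstream.

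The 12 genes with the highest downstream folds had values of 5.32 to 7.32. Slc38a2, a neutral amino acid transporter, had a region of 987 bp at chr15:96685567-96686553, centred 1332 bp past its 3′ end, with a fold of 7.32 (FDR 8.04e-13). S100a11, a calcium-binding protein, had a fold of 6.73 at 1439 bp (FDR 4.09e-10). Cct2, a subunit of the chaperonin that folds actin and tubulin, followed with 6.11 at 1832 bp (FDR 5.96e-11), though the 3′ end of Lrrc10 lay 2397 bp from the same centre. Lmna, which encodes the nuclear lamins A and C, had 6.02 at 1554 bp (FDR 2.14e-10), and Rpl37a, a protein of the large ribosomal subunit, 5.88 at 2142 bp (FDR 3.38e-07).

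The next were Tmem126a, an inner mitochondrial membrane protein (5.78), Spata2, an adaptor of the deubiquitinase CYLD (5.75), and Map2k2, the kinase MEK2 (5.72). Cd44, the receptor for hyaluronan, and Ncl, the nucleolar protein nucleolin, had 5.52 each, and Postn, the matrix protein periostin, and Slc3a2, the heavy chain of several amino acid transporters, 5.32 each. Tmem126a and Crebzf, and Spata2 and Slc9a8, are pairs whose 3′ ends face each other over the region, so the region cannot be given to one gene of the pair. For 11 of these 12 genes another peak lay within the gene or 1 kb of it, beside 39.0% of all protein-coding genes. Their highest folds ran from 2.76 at Map2k2 to 8.30 at Slc3a2, and Spata2 had no such peak. The promoter windows of the 10 genes described above held 4 to 41 CG pairs with a median of 24.5, beside a median of 14 at all genes with a strand. TATAAA was held by 0 of the 10, beside 13.5% of those genes, and 10 windows are too few to set them apart.

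Some genes had several regions. Of 2250 genes with a region, 1805 had 1, 334 had 2, 93 had 3 and 18 had 4. Rpl14 had 4 downstream, centred at 1206, 2619, 3993 and 4748 bp, with folds of 3.12, 5.31, 3.96 and 2.87, and no peak in the gene or within 1 kb of it. Cd44 had 4 between 1742 and 4261 bp with folds of 5.52 to 2.26, and it held 24 other peaks. Ran, the small GTPase of nuclear transport, had 4 between 1686 and 4582 bp, of which the farthest had the highest fold (4.84, FDR 1.22e-04). Rxra, the retinoid X receptor alpha, had 4 with folds of 4.83 at 1683 bp to 2.15 at 4839 bp. In all 11 genes had 4 downstream regions, and Cd44, Rpl14, Ran and Rxra had the highest folds among them. Pycard, the adaptor ASC of inflammasomes, had 1 downstream and 3 upstream, Sorbs2, an adaptor of the cytoskeleton, 3 and 1, and Ppp6r3, a regulatory subunit of a protein phosphatase, 3 and 1. Rplp1, a stalk protein of the ribosome, Sdc2, a heparan sulphate proteoglycan, and Pex19, which brings proteins to peroxisomes, had no strand in the tables.

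**Figure D1:**
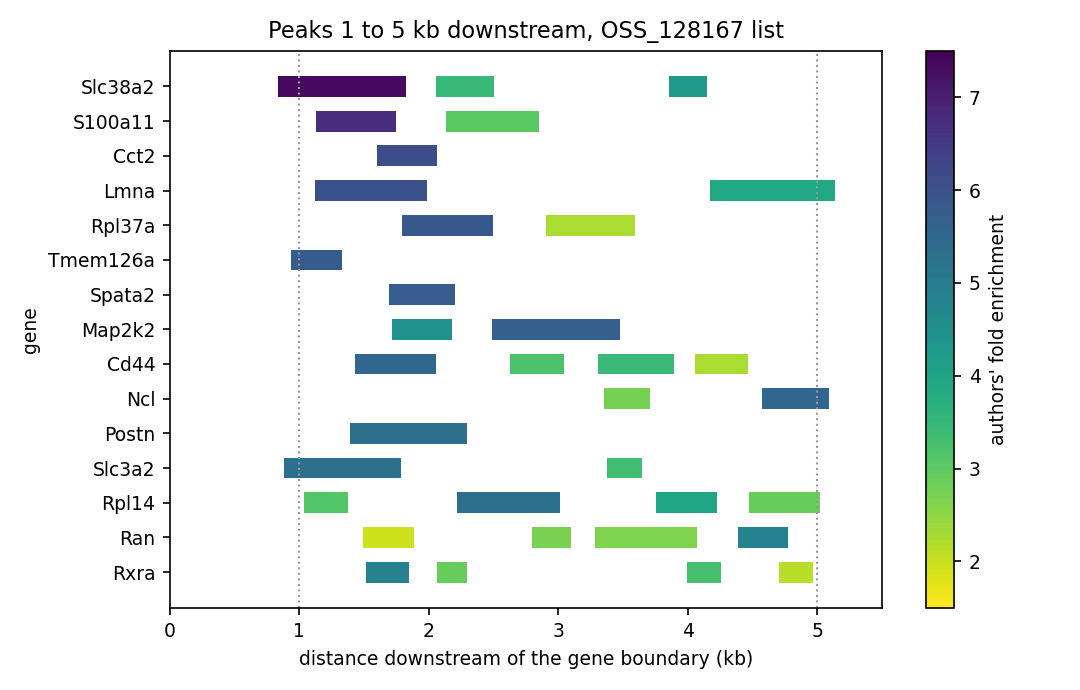
Regions 1 to 5 kb downstream of the 12 genes with the highest downstream folds and of 3 further genes with 4 downstream regions (Rpl14, Ran, Rxra). The x axis is the distance past the 3′ boundary in kb, each bar spans 1 peak, the colour is the authors' fold, and dotted lines mark the limits for the centre of a peak. The darkest bar is the region of Slc38a2 with a fold of 7.32, and the bars of Cd44 and Rpl14 run over most of the zone.

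Downstream ground carried several times as many peaks as upstream ground. Among the 2216 regions with a strand 77.1% (75.3 to 78.8) lay downstream, and the share was 84.7% (81.2 to 87.7) of the 503 with an FDR of at most 0.05. To allow for the room that each side offers, peaks were counted per Mb of ground that is free of annotated genes. The downstream zone had 46.6 peaks per Mb over 36.7 Mb and the upstream zone 13.4 over 38.0 Mb, a ratio of 3.48 (3.15 to 3.85). Ground more than 50 kb from any gene had 14.2 per Mb over 380 Mb. Relative to that ground the ratio was 3.27 (3.10 to 3.46) for the downstream zone and 0.940 (0.857 to 1.03) for the upstream zone, so the upstream interval includes 1. With an FDR of at most 0.05 the densities were 11.6 downstream, 2.03 upstream and 1.61 per Mb far from genes. Intervals cover the counting of peaks only, and neighbouring peaks are not independent.

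The downstream excess was highest just inside the zone and faded over 10 to 15 kb. Per Mb of gene-free ground there were 36.8 peaks in the first 250 bp past the 3′ end, 52.5 at 251 to 500 bp, 55.4 at 501 to 1000 bp and 58.4 at 1 to 2 kb. The density then declined to 49.9, 37.6 and 36.1 in the next 3 kb, 26.2 at 5 to 7.5 kb, 19.3 at 7.5 to 10 kb and 10.7 at 15 to 20 kb. On the upstream side it was 19.2 in the first 250 bp, 11.1 to 15.5 between 1 and 5 kb and 10.1 to 11.8 beyond. Upstream and downstream values at 15 to 20 kb were both 10.7. The limits of 1 and 5 kb therefore cut a profile that runs on at both sides.

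**Figure D2:**
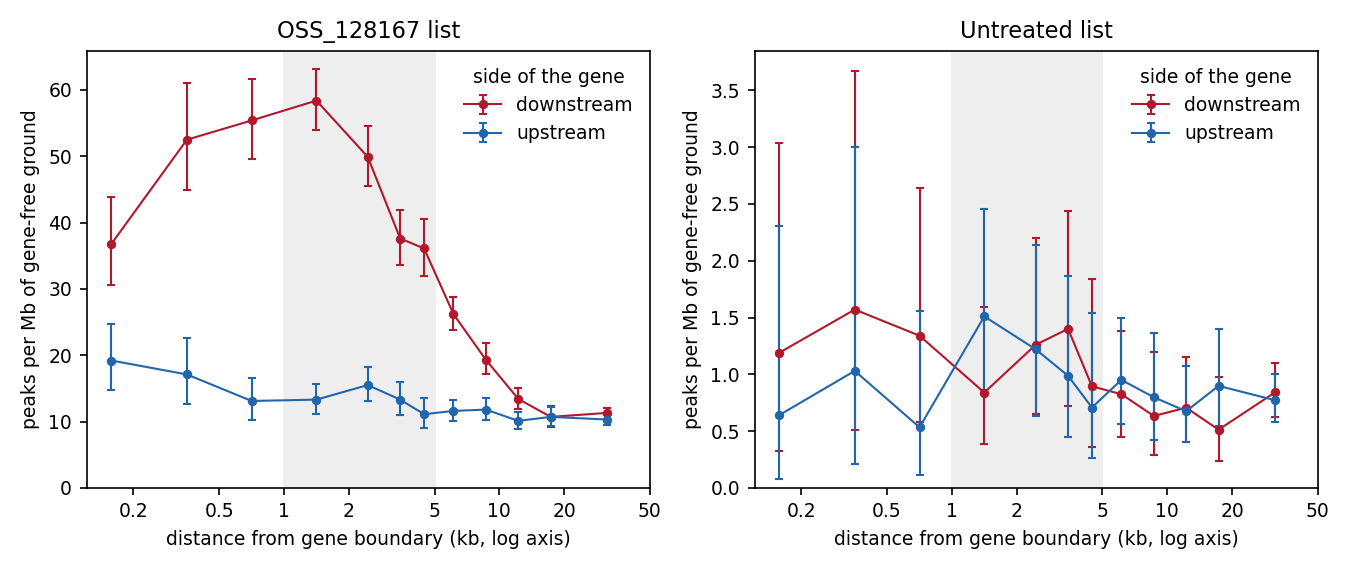
Peaks under 1000 bp per Mb of gene-free ground against the distance from the nearest protein-coding gene (kb, log axis), in the OSS_128167 list on the left and the untreated list on the right, with a different y scale. Red points are downstream and blue points upstream of the gene, bars are exact 95% counting intervals, and the grey band marks 1 to 5 kb. In the OSS_128167 list the red points reach 58.4 in the band, against 11.1 to 15.5 for the blue ones, and in the untreated list the intervals of both sides overlap throughout.

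Ground inside genes was set beside it for the 2033 genes of at least 20 kb whose zones on both sides held no other gene. At the 3′ end peaks under 1000 bp numbered 22.3 per Mb in the last 5 kb of the gene, 32.5 in the first 1 kb outside and 48.5 from 1 to 5 kb outside. At the 5′ end they numbered 15.2 in the first 5 kb of the gene, 4.92 in the first 1 kb outside and 10.1 from 1 to 5 kb outside. For these genes short peaks were thus denser past the 3′ end than within the last part of the gene, and before the 5′ end they were sparser than within its first part. Peaks of 1000 bp or longer do not enter these counts.

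**Figure D3:**
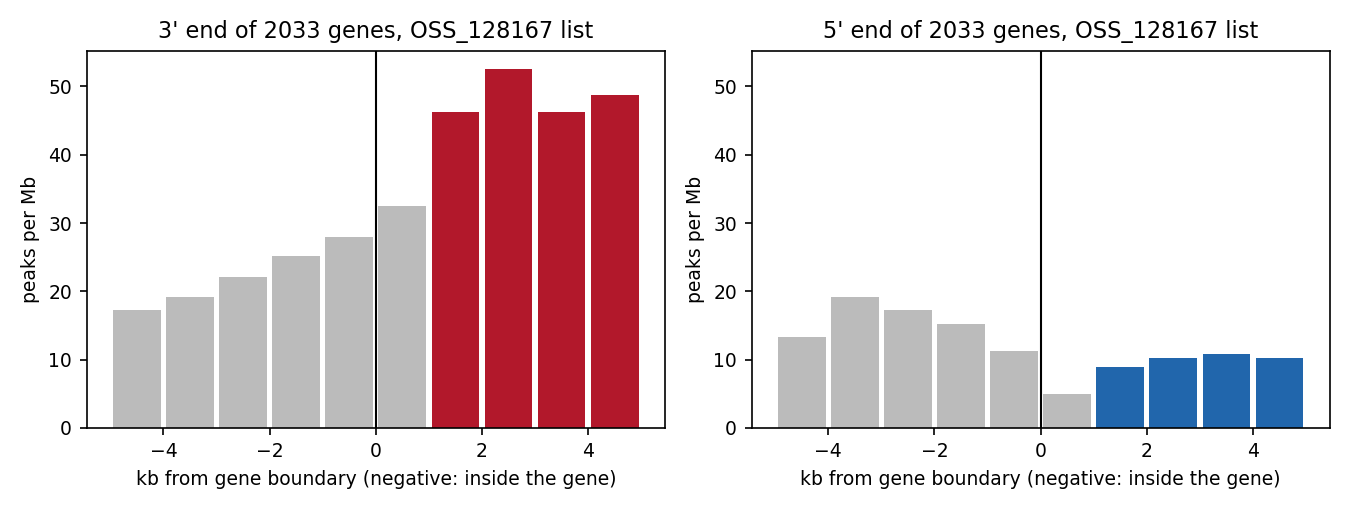
Peaks under 1000 bp per Mb in 1 kb steps across the 3′ end (left) and the 5′ end (right) of 2033 genes of at least 20 kb, OSS_128167 list. The x axis is the distance from the boundary in kb, negative inside the gene, and coloured bars are the 1 to 5 kb zone. The red bars lie between 46.2 and 52.6 per Mb and the blue ones between 8.85 and 10.8.

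Genes with higher Pol II peaks of their own had a downstream region more often. Over all 16456 protein-coding genes with a strand, 1349 had a downstream region (8.20%) and 470 an upstream one (2.86%). Among 4230 genes with both zones free of other genes the shares were 11.6% (10.7 to 12.6) and 4.63% (4.02 to 5.31). Own peaks lay inside the gene or within 1 kb of it, with the regions described here left out. Of the genes with both zones free and no own peak, 8.55% of 2714 had a downstream region and 4.86% an upstream one. Where the highest own fold was 4 to 6 the shares were 40.2% of 87 genes (29.9 to 51.3) and 2.30% (0.280 to 8.06). At an own fold of 6 and over they were 8 of 13 genes (61.5%, 31.6 to 86.1) and 1 of 13 (7.69%, 0.195 to 36.0). Without the condition on free zones the spread was narrower, with a downstream region at 5.72% of 10022 genes without a peak, 18.7% of 509 genes at an own fold of 4 to 6 and 21.1% of 123 genes at 6 and over. The upstream shares of those genes were 2.84%, 2.95% and 2.44%.

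The downstream share was also set beside the length of the gene. Over all genes with both zones free it was 8.61% of 1615 genes under 10 kb, 13.8% of 1420 genes of 10 to 50 kb, 15.1% of 859 genes of 50 to 200 kb and 8.04% of 336 genes over 200 kb, so it did not fall steadily with length. The upstream shares of these genes were 6.01%, 3.66%, 3.61% and 4.76%. Among genes with both zones free and an own peak of FDR at most 0.05, a downstream region was found at 44.7% of 47 genes under 10 kb, 33.3% of 90 genes of 10 to 50 kb, 24.6% of 114 genes of 50 to 200 kb and 8.70% of 161 genes over 200 kb. Upstream regions were found at 2.13%, 4.44%, 4.39% and 6.21% of the same genes. Seen from the regions, 60.2% (57.9 to 62.6) of downstream and 39.6% (35.3 to 44.0) of upstream ones belonged to a gene with another peak, beside 39.0% of all protein-coding genes. With another peak of FDR at most 0.05 the shares were 24.8% and 13.8%, beside 11.9% of genes. A region close to a gene and a peak in the gene lie in the same library and neighbourhood, so this is a description.

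**Figure D4:**
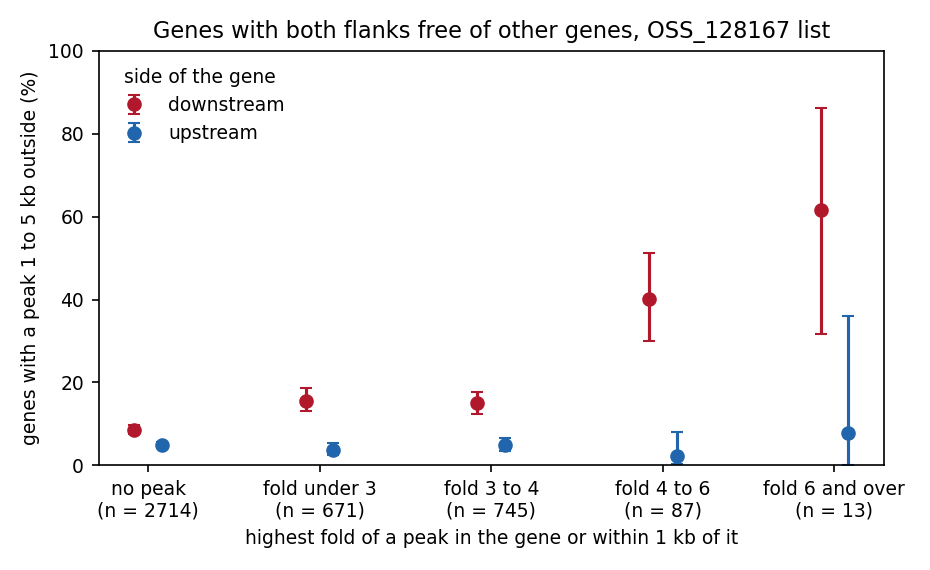
Share of genes with a region 1 to 5 kb downstream (red) or upstream (blue), for 4230 genes with both zones free of other genes, by the highest fold of a peak in the gene or within 1 kb of it (regions left out), OSS_128167 list. Points are percentages with exact 95% intervals, and n is the number of genes. Red points lie at 8.55% for genes with no peak and at 61.5% for 13 genes with a fold of 6 and over, while the blue points stay at 2.30% to 7.69%.

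Promoter letters differed with the side too. The RefSeq promoter window, which can belong to an inner start of the gene, held a median of 21 CG pairs at genes with a downstream region, 7 at genes with an upstream region and 14 at all 16456 genes. TATAAA was present on either strand in 11.5% (9.84 to 13.3), 20.2% (16.7 to 24.1) and 13.5% (13.0 to 14.1) of them. A peak lay over the promoter window at 5.49% of genes with a downstream region, 5.11% of genes with an upstream one and 2.50% of all genes.

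Ribosomal protein genes had downstream regions at 24 of 60 members with a strand (40.0%, 27.6 to 53.5), beside 8.20% of all genes. Upstream regions were found at 0 of the 60, with an interval of 0 to 5.96% that includes the 2.86% of all genes. The list goes by symbol and also takes paralogs such as Rps27l. After Rpl37a and Rpl14 the highest folds were at Rps6, a small-subunit protein phosphorylated after growth signals (4.98 at 1064 bp, FDR 1.0e-05), and Rpl38 (4.96 at 1212 bp, FDR 5.25e-06). A further 8 of 20 members without a strand had a region, so 53 regions in all belonged to this list, with a median fold of 3.23. Rps6, like Rpl14, had no other peak in the gene or within 1 kb of it.

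Extracellular matrix genes, the main products of osteoblasts, had upstream regions at 0 of 15 members with a strand (0 to 21.8%), beside 2.86% of all genes. Downstream regions were found at 8 of the 15 (53.3%, 26.6 to 78.7), beside 8.20% of all genes. Besides Postn they were led by Mmp14, a membrane-bound collagenase (4.59 at 3546 bp, FDR 2.89e-04), Col1a2, a chain of type I collagen (4.32 at 3429 bp, FDR 3.81e-05), and Col3a1, type III collagen (4.21 at 1887 bp, FDR 3.62e-04). Col3a1 had 3 regions in a row, and Col5a1, type V collagen, also 3. Of 12 matrix members without a strand only 2 had a region. The list of osteoblast genes had 3 of 15 (20%, 4.33 to 48.1), an interval that includes the 8.20% of all genes. They were Twist1, an inhibitor of bone differentiation (FDR 0.676), Pth1r, the parathyroid hormone receptor (FDR 0.966), and Spp1, osteopontin (FDR 0.753), all with folds of 2.52 or less. Regions at members without a strand included those of Dlx5 and Bmp2, regulators of bone formation, and of the cadherin Cdh11, with highest folds of 3.90 (FDR 0.00116), 3.30 (FDR 0.0991) and 3.45 (FDR 0.0229).

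Immediate early genes, which are transcribed within minutes of a stimulus, had downstream regions at 10 of 20 members with a strand (50%, 27.2 to 72.8). All genes had 8.20%. Upstream regions were found at 0 of the 20 (0 to 16.8%), beside 2.86% of all genes. Of 6 members without a strand 2 had a region. Gadd45b, a stress sensor, had 4.23 at 1458 bp (FDR 3.34e-04), Btg2, an antiproliferative factor, 3.91 at 2612 bp and Fosl2, a subunit of AP-1, 3.91 at 1056 bp (FDR 0.00520 each). Egr1, a zinc finger factor, had no strand in the tables and a fold of 4.64 (FDR 6.99e-05). Klf6, a zinc finger factor too, had 3 regions with folds of 2.52 to 3.23, none with an FDR of at most 0.05.

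Replication-dependent histone genes had downstream regions at 13 of 57 members with a strand (22.8%, 12.7 to 35.8), beside 8.20% of all genes. Upstream regions were found at 2 of the 57 (3.51%, 0.428 to 12.1), beside 2.86% of all genes. H1f5, a linker histone, had 3 downstream, the highest at 5.03 (3752 bp, FDR 6.36e-05), and H2bc12 and H2ac15, core histones, 4.67 and 4.31. H4c4 had the highest upstream fold of the list, 4.31, in a region that lay 3684 bp downstream of H3c4. These genes are packed in clusters, with 0.0943 Mb of free downstream zone for 57 genes, and the next gene is often near.

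Genes of 3′ end processing and termination had downstream regions at 6 of 21 members with a strand (28.6%, 11.3 to 52.2), beside 8.20% of all genes. Rbbp6, a cofactor of the cleavage complex, had 3.53 at 1156 bp (FDR 0.0268), Cpsf6, a subunit of cleavage factor I, 3.41 at 3456 bp (FDR 0.00520), Pabpn1, the nuclear poly(A)-binding protein, 3.36 (FDR 0.0619), and Xrn2, the exonuclease named above, 3.27 at 1624 bp (FDR 0.0428). Cytoskeletal genes had 5 of 20 (25%, 8.66 to 49.1), an interval whose lower end is close to the 8.20% of all genes. They were led by the actin crosslinker Actn1 (5.03, FDR 6.36e-05) and the integrin-binding talin gene Tln1 (3.95, FDR 0.0120). Then came Tpm4, a tropomyosin (3.36), and Tuba1a, a tubulin (3.08). Stress response genes also had 5 of 20, with the same interval. The highest folds were at the mitochondrial chaperonin Hspd1 (4.64, FDR 6.99e-05) and the asparagine synthetase Asns (3.66, FDR 0.0179). Herpud1 of endoplasmic reticulum stress and the cochaperonin Hspe1 came next (FDR 0.202 and 0.404).

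The lists with the lowest shares were glycolysis with 2 of 18 (11.1%, 1.38 to 34.7) and efferocytosis signals with 1 of 22 (4.55%, 0.115 to 22.8), both, like the osteoblast list, with intervals that include the 8.20% of all genes. In glycolysis Eno1, an enolase, had 3.59 (FDR 0.050) and Pfkfb3, which makes an activator of phosphofructokinase, 2.67 downstream, and Pdk1, a kinase of pyruvate dehydrogenase, 2.87 upstream. Efferocytosis is the uptake of dying cells, and Pros1, a bridging protein between them and phagocytes, had a downstream fold of 2.44 (FDR 0.496). Timd4, a phosphatidylserine receptor, had 2.71 upstream. S1pr1, the receptor of a find-me lipid, had 5.55 (FDR 4.31e-09) and Sirpa, the receptor of CD47, 2.54 (FDR 0.532), both at genes without a strand.

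**Figure D5:**
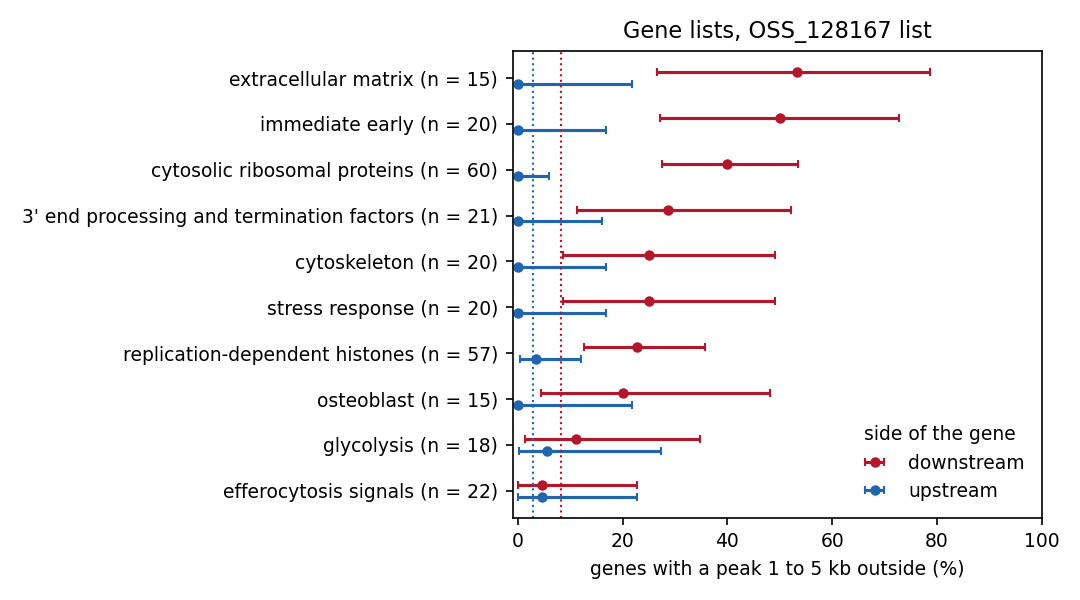
Share of the genes of each list that had a region 1 to 5 kb downstream (red) or upstream (blue), OSS_128167 list, with exact 95% intervals and n genes with a strand. Dotted lines are the shares of all protein-coding genes, 8.20% downstream and 2.86% upstream. Extracellular matrix genes lie at 53.3%, immediate early genes at 50%, ribosomal protein genes at 40.0% and efferocytosis signals at 4.55% downstream.

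Several of the highest upstream regions also lay past the 3′ end of the neighbouring gene. The highest fold of all regions, 7.91 at chr11:116016273-116016938 (FDR 2.79e-15), lay 3886 bp upstream of the galactokinase gene Galk1 and 5356 bp downstream of H3f3b, which encodes histone H3.3. No peak lay in Galk1 or within 1 kb of it, whereas the peak over H3f3b and its 3′ flank was 7528 bp long with a fold of 20.7. L3mbtl1, a reader of methylated histones, had 5.32 at 1267 bp, and that region lay 3945 bp downstream of the splicing factor gene Srsf6. The region of Ttc23l (5.0) lay 5634 bp downstream of Rai14, and that of 9530068E07Rik (4.16) 3724 bp downstream of Vdac1, the main channel of the outer mitochondrial membrane. The regions of Fam161a, a ciliary protein (5.05), Coq3, an enzyme of ubiquinone synthesis (4.37), and Stpg4 (4.16) lay 2031, 2047 and 3797 bp from Cct4, Pnisr and Calm2, genes without a strand in the tables.

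Derl3, a protein of endoplasmic reticulum degradation (4.99), Tacr3, a neurokinin receptor (4.10), Abcg3, a transporter (4.10), and Hps3, a subunit of a lysosome biogenesis complex (4.06), had no such neighbour within 10 kb. Of all 508 upstream regions 25% (21.3 to 29.0) lay within 10 kb downstream of the other flanking gene, and of the 77 with an FDR of at most 0.05 36.4% (25.7 to 48.1) did, beside 11.8% of the upstream zone's ground. Upstream ground that faced the 3′ end of the next gene had 16.5 peaks per Mb, and upstream ground that faced a 5′ end had 10.3. In gaps of up to 20 kb these densities were 21.8 and 7.51. Downstream ground that faced another 3′ end had 50.9 per Mb and downstream ground that faced a 5′ end 44.3, and in gaps of up to 20 kb 66.8 and 46.2. In all 487 regions (17.2%) lay within 5 kb of both flanking genes, and 37 of 1782 genes with a strand had regions on both sides.

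The untreated list held 99 peaks in the same zone, of its 1607 on chromosomes 1 to 19 (6.16%, 5.03 to 7.45), spread about evenly over both sides. While 77.1% of regions with a strand lay downstream in the OSS_128167 list, 40 of the 83 zone peaks with a strand lay downstream in the untreated list (48.2%, 37.1 to 59.4). The ratio of downstream to upstream density was 3.48 (3.15 to 3.85) in the OSS_128167 list and 0.963 (0.610 to 1.52) in the untreated list. Relative to ground more than 50 kb from genes the untreated ratios were 2.50 downstream (1.72 to 3.55) and 2.59 upstream (1.81 to 3.65). An FDR of at most 0.05 was reached by 7 of the 99 (7.07%, 2.89 to 14.0), beside 6.35% of all untreated peaks. Of these 7, 6 lay in the dense bins described next, and outside them 1 of 84 reached it (1.19%, 0.0301 to 6.46), that of Cdkn1a. In the untreated list 36 of the 99 (36.4%, 26.9 to 46.6) were on chromosomes 6, 10, 17 and 19, beside 19.5% of the 2824 regions. The share of all untreated peaks on these chromosomes is not given here. A further 15 of the 99 (15.2%) lay in 4 bins of 1 Mb on chromosomes 5 and 8, beside 0.248% of the regions. These dense untreated bins were chosen after the data had been seen. Without them 51.5% (39.0 to 63.8) of the untreated zone peaks with a strand lay downstream. The lists differ in size by more than an order of magnitude and their depths are unknown, so the treatment and the quality of the library cannot be told apart.

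Of the 2824 regions 10 (0.354%, 0.170 to 0.650) overlapped an untreated peak, beside 0.207% of all OSS_128167 peaks. Of the 99 untreated zone peaks 19 (19.2%, 12 to 28.3) overlapped an OSS_128167 peak of any length or place. The 10 regions were near Gm17353 (4.21), the formyl peptide receptor gene Fpr-rs3 (3.77), Eny2, a subunit of transcription and export complexes (3.24), the zinc finger genes Zfp979 (2.94), Zfp992 (2.27) and Zfp978 (2.0), the vomeronasal receptor gene Vmn1r107 (2.89), Gm40469 (2.83), the olfactory receptor gene Olfr449 (2.67) and Lsmem1 (2.05), with the folds of the OSS_128167 list. The limit of 0.05 on the FDR was met by 4 of the 10 OSS_128167 peaks and by 0 of the untreated peaks under them. Of the 10, 2 lay downstream, those of Gm17353 and Fpr-rs3, 4 lay upstream, and 4 were at genes without a strand. Of these genes 6 belong to families of many similar copies (formyl peptide, vomeronasal and olfactory receptors and zinc finger proteins), and the part of this in the calls was not tested.

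Some untreated zone peaks lay past the 3′ ends of 3 genes chosen after their values were seen. The highest of each gene were at Cdkn1a, the cell cycle inhibitor p21 (untreated fold 5.0, FDR 7.63e-05), Ccn1, a matricellular protein (untreated fold 4.32, FDR 0.234), and H3f3b (untreated fold 4.01, FDR 0.0536). Further untreated peaks there had folds of 3.56 at Cdkn1a, 3.23 at Ccn1, and 3.16 and 2.07 at H3f3b, none with an FDR of at most 0.05. At Ccn1 and H3f3b they lay under OSS_128167 peaks of 7257 and 7528 bp, which the length limit keeps out of the regions described. In the OSS_128167 list 149 peaks of 1000 bp or longer had their centre in the same zone, 98 of them downstream and 10 upstream, and 85.2% (78.5 to 90.5) had an FDR of at most 0.05. The length limit thus removes the highest folds of the zone, among them H3f3b (20.7) and H3c15 (15.1) downstream and Eapp (13.5) upstream.

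Just inside the limits, regions at 1002 and 1003 bp were those of Tigd3 (fold 2.31), Wnt5b (2.69) and Lemd2 (2.52), and just outside, at 998 and 999 bp, were peaks of Zfp781 (2.18), Sh2d7 (3.23) and Gdf11 (2.56). At the far limit Olfr1051 (2.44), Vezt (3.02) and Il1f8 (2.71) lay inside at 4996 to 4999 bp, and Dynlrb2, Ppm1a (2.87 each) and Sugp2 (2.97) outside, at up to 5011 bp. At the length limit the regions of Slc38a2, Map2k2 and Srfbp1 had 987, 989 and 994 bp, and peaks of Rab2a, Socs3 and Wtap had 1005 bp or less with folds of 4.02, 3.54 and 4.35.

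Markers of the cell type were partly covered. With the regions described here left out, the OSS_128167 list had a peak in or within 1 kb of 39.0% of all protein-coding genes, and one with an FDR of at most 0.05 for 11.9%. In that list 5 of 10 osteoblast markers had a peak, all with an FDR of at most 0.05 (Col1a1, Col1a2, Runx2, Sp7 and Sparc), while Alpl, Bglap, Ibsp, Spp1 and Dmp1 had none, and in the untreated list 2 of 10 had a peak. In the OSS_128167 list 3 of 5 macrophage markers had a peak (Adgre1 and Cd68 at that FDR, Csf1r and Lyz2 without a peak), 2 of 3 chondrocyte markers (Sox9 at that FDR), 2 of 3 endothelial markers with none at that FDR, and 0 of 3 adipocyte markers. Regions of the zone lay at 3 osteoblast markers, Col1a2, Sparc and Spp1, and at 1 other marker, Adipoq. The part of other cells in the counts was not tested. Over chromosomes the density of regions ran from 16.9 per Mb on chromosome 13 to 40.4 on chromosome 8, and downstream regions outnumbered upstream ones on each of the 18 chromosomes with strands.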

How the data were processed

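Per the submitters' processing notes, fastp and BWA were used and the build was mm10. What called the peaks, at which thresholds and with what use of the inputs, is not given in the sources used here. In each of the deposited lists, per the file headers, a peak has its position, length, fold enrichment (a ratio), p-value, FDR and pileup (a height of signal). Fold, p-value and FDR are the authors' values within 1 list. The lists hold no read totals, so depth is unknown.

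Peak centres were placed between RefSeq genes of GRCm38.p6, the assembly behind mm10. Strand came from the RefSeq promoter table, which held 16456 of 20661 protein-coding genes on chromosomes 1 to 19 and none of chromosome 18. Its start lay nearer the 5′ boundary for 98.2% of them. A gene boundary is the outermost annotated end, so a longer unannotated 3′ end would count as outside. Densities divide peaks by base pairs free of any gene in the same distance range. Overlap needed 1 bp. Exact (Clopper-Pearson) 95% intervals cover counting only, and peaks are not independent. With 1 library per condition no test was made. On simulated gene maps 913 of 913 planted peaks were recovered.

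The members and gene lists were chosen with earlier results of these data known. Named are the genes of the 12 highest folds on each side, the 10 genes with the most regions (equal counts ordered by fold), regions that overlap an untreated peak, up to 4 genes per list, and regions nearest each limit. Genes named outside this rule (at RNA genes, untreated or longer peaks, markers, small counts) were named after their values were seen. No genome sequence was used here. The FDR limits, length limit, distance, zone, exclusion of other genes and chromosome X were varied. Software was scipy 1.17.1, pandas 2.3.3 and numpy 2.4.6 under Python 3.11.15, with matplotlib 3.10.9 for plots.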

Additional observations from a re-analysis of the deposited data

How the results depend on the processing

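Values are 1 number per setting, with 1 library, so a value counts as unmoved when it stays inside the 95% counting interval (counts of regions within 1.5 times). Of 69 comparisons 44 were unmoved and 25 moved. A turn of direction was defined only for the density ratios, and 0 of these turned. With an FDR of at most 0.05 there were 636 regions, 84.7% of the 503 with a strand downstream, with density ratios of 5.73 (downstream over upstream) and 4.22 (zone over ground more than 50 kb from genes), a median fold of 3.68 and 68.9% at genes with another peak. At an FDR of at most 1e-05 these were 35 regions, 86.2% of the 29 with a strand, 6.47, 47.3, 5.31 and 77.1%, and 0% overlapped an untreated peak. A zone of 2 to 5 kb gave 1841 regions, 74.7% of those with a strand downstream, ratios of 3.11 and 1.93 and 20.6% at an FDR of at most 0.05. With lengths below 500 bp the ratio to distant ground was 1.83, the share at that FDR 17.5% and the share at genes with another peak 52.6%. Without a length limit the ratio to distant ground was 2.23 and the share at that FDR 25.7%, and by the nearer edge of the peak the ratio was 2.02. When the other peak had to have an FDR of at most 0.05 that share was 23.0%. The dense untreated bins and the centre of the other peak as its position were tried after the data had been seen.

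No paired analysis was possible because each condition had 1 Pol II library and no replicate. The depth of the libraries is unknown, so absent peaks in the untreated list say nothing of absent Pol II. A permissive list, missing strands and the placing of a region at the nearest of neighbouring genes limit what each region shows, and annotated gene ends need not be the ends used in these cells.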
